A study of Mus musculus with 2 samples.

Results

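Hyaluronan is a large unbranched sugar polymer of the pericellular matrix, and 8 genes of its synthesis, binding and turnover were read in cultured Nestin+ stromal cells from bone marrow and heart. They were taken by name from the deposited gene tables: the synthase genes Has1, Has2 and Has3, the hyaluronidase genes Hyal1 and Hyal2, the receptor gene Cd44, the proteoglycan gene Vcan and the cross-linking factor gene Tnfaip6. All 8 were found among 49492 gene symbols. Both groups of cells came from C57BL/6 mice, 7 days old, with a green fluorescent protein driven by the regulatory sequence of Nestin, an intermediate filament gene. RNA came from cells at passage 10, with 1 library per tissue. The medium of the heart cells held 20 ng/ml EGF, 20 ng/ml bFGF, 4 ng/ml cardiotrophin-1 and the N2 and B27 supplements. The bone marrow cells grew in another medium, cited from earlier work, so tissue and medium cannot be told apart. With 1 library per tissue there was no replicate spread and no test, and a difference below is a difference between these libraries.

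Hyaluronan is made at the plasma membrane by the synthases, which join UDP-glucuronic acid and UDP-N-acetylglucosamine and extrude the chain as it grows. Outside the cell the chain is held by receptors such as CD44 and by proteoglycans with a link module, of which versican is the main one of soft connective tissue. It is cut by hyaluronidases at the cell surface and in lysosomes. In the developing heart the hyaluronan and versican matrix fills the endocardial cushions, and in bone marrow CD44 and hyaluronan take part in the lodging of blood-forming cells.

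Values are RPKM, reads normalised to the length of each gene model and to library size. A gene is called higher in a library when log2((heart + 1)/(bone marrow + 1)) is at least 1 in size, a 2-fold difference, and the higher library is at or above 5 RPKM. The read totals recovered were 53999962 for the marrow library and 64872683 for the heart library. The 95% intervals given are exact (Clopper-Pearson) for a ratio and cover counting error only. They are not given where reads could not be recovered. Coordinates are those of the files, read on GRCm38. No molecular identifiers are recorded, so reads are not independent molecules. In bulk RNA, fewer cells with a transcript and less transcript per cell cannot be told apart. All 8 mesenchymal stroma markers reached 1 RPKM in at least one library. Of these, 3 were called higher in heart: Thy1 and Eng, at 0.0603 and 0.576 RPKM in bone marrow and 16.7 and 33.9 in heart, and Pdgfra, at 11.6 and 27.6. Among all genes at or above 5 RPKM, 7.56% were called toward heart. Nt5e and Vim were lower in heart without being called. Vim, at 962 and 521 RPKM, was under 2-fold. Nt5e, at 1.59 and 0.225 RPKM, was 7.07 times lower in heart but under the floor of 5 RPKM. Nes itself was at 1.20 RPKM in the marrow cells and 8.74 RPKM in the heart cells. The leukocyte markers that define the lineage were near 0, with Ptprc at 0.00469 RPKM in bone marrow and listed at 0 in heart. Cd53, Cd14 and Lyz2, the 3 of 7 leukocyte markers at or above 1 RPKM, summed to 4.88 RPKM in the marrow cells and 8.85 RPKM in the heart cells. The gap was nearly all Cd53, at 1.03 and 4.80 RPKM, while Cd14 and Lyz2 had heart to marrow ratios of 1.06 and 1.03. Endothelial markers reached 1 RPKM in 1 of 6 cases (Vwf, 1.13 in bone marrow), and cardiomyocyte and mesothelial markers in 0 of 6 and 0 of 4. The part of these markers in the differences below was not tested.

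The Vcan transcript was far more abundant in the heart cells, while those of Has2 and Cd44 were lower there and those of Has1, Hyal1 and Hyal2 differed little. Of the 3 genes at or above 5 RPKM, Vcan was called higher in heart and Cd44 and Hyal2 were called neither. No gene of the 8 was called higher in bone marrow. Over all 7659 genes at that level, the calls took 7.56% toward heart and 9.51% toward bone marrow (579 and 728 genes, or 704 and 583 after scaling to the median ratio). The other 5 genes were below 5 RPKM in both libraries, so the rule could not call them, and Has3 and Tnfaip6 stayed below 1. For the 6 genes that reached 1 RPKM, the log2 ratios had a median of 0.02, beside -0.11 over all 11355 genes at that level.

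**Figure D1:**
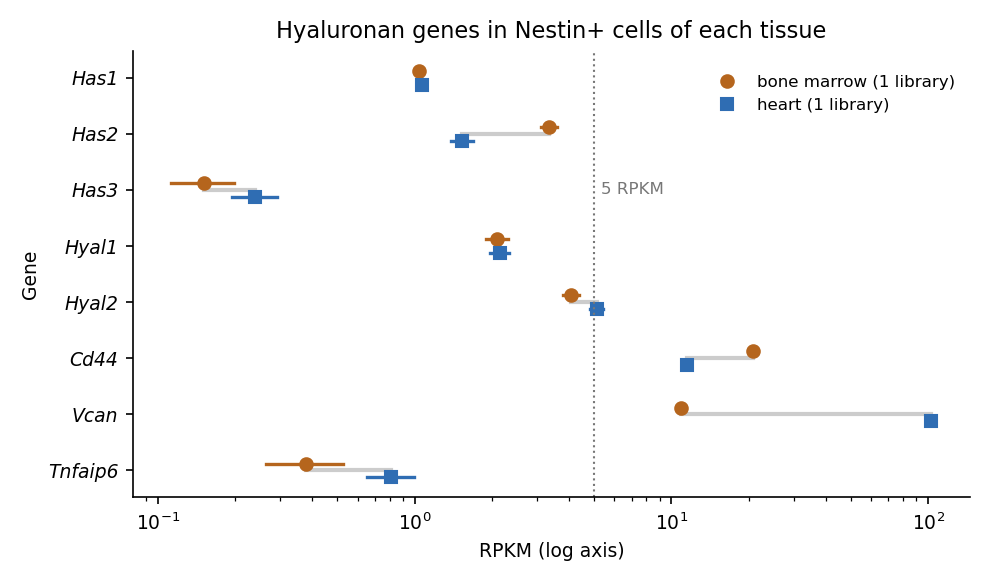
RPKM (log axis) of the 8 hyaluronan genes in the bone marrow library (circles) and the heart library (squares), with exact 95% Poisson counting intervals where reads were recovered (not for Has1) and a dotted line at 5 RPKM. Vcan is far to the right in heart at 103 RPKM against 10.9, while Has2 and Cd44 are further right in bone marrow.

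Has2, which encodes the synthase that makes most hyaluronan in mesenchymal tissue, measured 3.35 RPKM in the marrow cells and 1.54 RPKM in the heart cells (766 and 422 reads). It was 2.18 times lower in heart (95% counting interval 1.93 to 2.46). On the log2(RPKM + 1) scale the difference was -0.78, and with a pseudocount of 0.1 RPKM it was -1.08. The gene lies on chromosome 15 at 56665627 to 56694539, minus strand, and 182 of its 4237 exon bases (4.30%) are overlapped by the antisense transcript Has2os. Has2os itself was at 0.148 RPKM in the marrow cells and 0.170 RPKM in the heart cells (13 and 18 reads), so its level was small beside that of Has2 in both libraries.

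Has1, on chromosome 17 at 17843328 to 17855188, minus strand, encodes a second synthase. It measured 1.05 RPKM in the marrow cells and 1.07 RPKM in the heart cells, with a log2 ratio of 0.02. Its gene model matched none of known length, so it has no read count or interval. Has3, on chromosome 8 at 106870242 to 106884566, plus strand, encodes the third and was the lowest of the synthase genes. It measured 0.151 RPKM in the marrow cells and 0.239 RPKM in the heart cells (52 and 99 reads), a ratio of 1.58 with an interval of 1.12 to 2.26. The exons of Has3 are overlapped on the opposite strand by Chtf8 over 352 bases (5.52%).

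The synthase transcripts summed to 4.54 RPKM in the marrow cells and 2.84 RPKM in the heart cells. Has2 made up 73.7% of that sum in bone marrow and 54.0% in heart. The share of Has1 was 23% in bone marrow and 37.6% in heart, and that of Has3 was 3.32% and 8.41%. The order Has2, Has1, Has3 was the same in both libraries, and the lower sum in heart lay in Has2, since Has1 and Has3 were not lower there. On their own strand the 3 synthase genes share no stretch of 50 bases with any other gene's transcripts in GENCODE M21. Reads from the bases of Has2 and Has3 that an antisense gene overlaps cannot be assigned without strand.

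**Figure D2:**
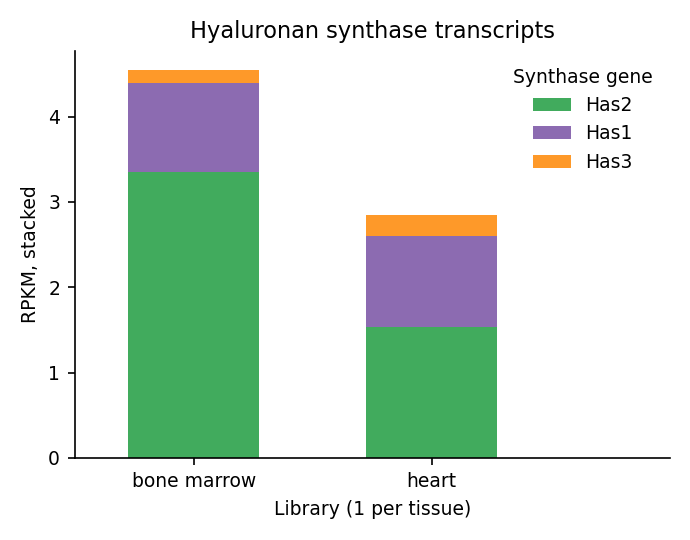
Stacked RPKM of Has2, Has1 and Has3 in the bone marrow and heart libraries, 1 library each and no error bars. The stacks are 4.54 RPKM (bone marrow) and 2.84 RPKM (heart) high, and the Has2 segment is the part that is smaller in heart.

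Vcan encodes versican, a chondroitin sulfate proteoglycan whose N-terminal link module binds hyaluronan. It measured 10.9 RPKM in the marrow cells and 103 RPKM in the heart cells (8504 and 96184 reads). It was 9.41 times higher in heart, with an interval of 9.21 to 9.63 and a log2 ratio of 3.12. In heart, 96.9% of the genes at or above 1 RPKM lay below Vcan, and in bone marrow 60.0% did. The row spans chromosome 13 from 89655312 to 89742509, minus strand, and it sums all splice forms, which differ in the number of chondroitin sulfate chains and cannot be told apart here. None of its exon bases is overlapped by another gene.

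Cd44 encodes the main cell surface receptor of hyaluronan, which also binds osteopontin. It measured 20.7 RPKM in the marrow cells and 11.5 RPKM in the heart cells (7585 and 5048 reads). It was 1.81 times lower in heart, with an interval of 1.74 to 1.87 and a log2 ratio of -0.80, under the 2-fold rule. The row lies on chromosome 2 at 102811141 to 102901665, minus strand, and sums the standard and variant forms. Within a library, Vcan was at 0.525 times the level of Cd44 in bone marrow and at 8.93 times in heart. Cd44 was at 6.19 times the level of Has2 in bone marrow and at 7.48 times in heart. The order of these genes therefore differed between the libraries: Cd44 was the most abundant of the 8 in bone marrow and Vcan in heart.

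**Figure D3:**
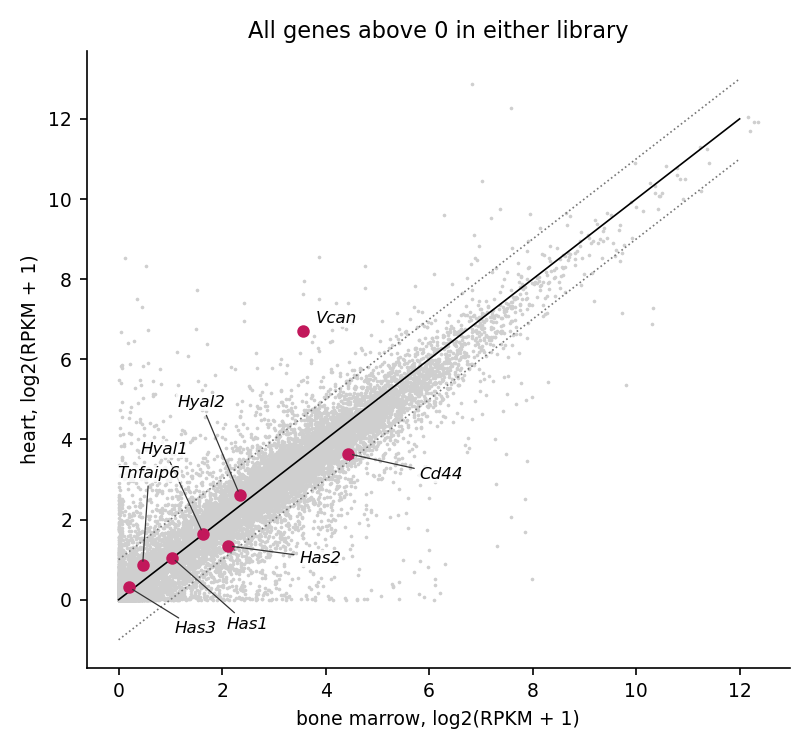
Each grey point is a gene above 0 in either library, placed by log2(RPKM + 1) in bone marrow and in heart, with the line of equal level and dotted lines at 2-fold. Vcan lies above the upper dotted line, and the other 7 hyaluronan genes lie between the dotted lines.

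The regions just upstream of Vcan, Cd44 and Cemip are shown because these genes carry the differences in the matrix proteoglycan, the receptor and the breakdown of hyaluronan (Cemip is described below). Of the 8 genes, 6 have an entry in the RefSeq promoter table (GRCm38.p6), and Has2 and Has3 are named only. Each sequence is the 250 bases before the RefSeq start, read 5′ to 3′ on the strand of the gene: chr13:89742513-89742762 (minus) for Vcan, chr2:102901666-102901915 (minus) for Cd44 and chr7:84086506-84086755 (minus) for Cemip. None of these bases lies in a GENCODE exon. Capitals mark matches on either strand to the GC box GGGCGG, the CCAAT box CCAAT, the TATA box TATAAA, the AP-1 site TGANTCA, the TCF/LEF core CTTTGA and the E-box CACGTG.
Vcan: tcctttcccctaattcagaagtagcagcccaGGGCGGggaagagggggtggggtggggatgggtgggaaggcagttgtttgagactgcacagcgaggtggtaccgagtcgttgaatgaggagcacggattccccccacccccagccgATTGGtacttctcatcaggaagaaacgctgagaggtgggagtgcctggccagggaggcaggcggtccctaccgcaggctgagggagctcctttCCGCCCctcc
Cd44: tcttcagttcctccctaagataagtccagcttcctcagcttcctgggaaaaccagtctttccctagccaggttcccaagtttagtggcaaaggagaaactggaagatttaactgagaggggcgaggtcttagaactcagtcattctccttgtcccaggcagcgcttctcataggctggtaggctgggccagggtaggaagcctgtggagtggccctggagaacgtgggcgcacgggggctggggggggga
Cemip: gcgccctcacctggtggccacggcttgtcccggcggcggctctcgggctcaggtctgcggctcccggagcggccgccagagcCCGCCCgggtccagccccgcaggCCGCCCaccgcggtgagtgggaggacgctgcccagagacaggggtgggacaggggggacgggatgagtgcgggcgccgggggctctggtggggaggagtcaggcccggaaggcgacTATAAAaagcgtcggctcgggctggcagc
The Vcan window held 2 GC boxes, starting 219 and 10 bases before the start, and 1 CCAAT box on the opposite strand at 103. The Cemip window held 2 GC boxes and a TATA box that began 29 bases before the start. The Cd44 window held none of the 6 motifs. Among 32851 promoter windows of the same length, 32.7% held a GC box, 33.8% a CCAAT box, 12.4% a TATA box, 6.75% an AP-1 site, 13.8% a TCF/LEF core and 6.02% an E-box. GC content was 62.4% for Vcan, 56.4% for Cd44 and 75.2% for Cemip, beside a median of 52.4% over all windows. The letters describe these windows and identify no bound factor.

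Tnfaip6 encodes TSG-6, a secreted protein that moves heavy chains of inter-alpha-inhibitor onto hyaluronan and so cross-links it. It measured 0.379 RPKM in the marrow cells and 0.811 RPKM in the heart cells (35 and 90 reads). The ratio was 2.14 with an interval of 1.43 to 3.26, and the log2 ratio was 0.39, so the gene was low in both libraries. The row lies on chromosome 2 at 52038009 to 52056686, plus strand.

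Hyal2 and Hyal1 encode the hyaluronidases of somatic tissue, the first anchored at the cell surface, where it cuts long chains, and the second in lysosomes, where it cuts fragments further. Hyal2 measured 4.07 RPKM in the marrow cells and 5.12 RPKM in the heart cells (723 and 1094 reads), a ratio of 1.26 with an interval of 1.15 to 1.39. Hyal1 measured 2.10 RPKM in the marrow cells and 2.14 RPKM in the heart cells (428 and 525 reads), a ratio of 1.02 with an interval of 0.897 to 1.16 that holds 1. Hyal2 was at 1.94 times the level of Hyal1 in bone marrow and 2.39 times in heart. Both values of Hyal1 are uncertain, because 1961 of its 3777 exon bases (51.9%) are shared on the same strand with Hyal3 and Nat6 (Naa80 in GENCODE). The values of Hyal3 and Nat6 can be affected by the same overlap. Of the 3867 stretches of 50 bases in Hyal1 transcripts, 1920 also occur in transcripts of other genes, 132 genes in all.

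Hyal2 (107567945 to 107572779) and Hyal1 (107576927 to 107581710) sit side by side on the plus strand of chromosome 9. Another 11 protein-coding genes have their lower coordinate within 50000 bases of that of either, and 6 of them reached 5 RPKM. Of these 6, 1 was called, beside 17.1% of all genes called in either direction. That gene was Ifrd2, at 8.60 RPKM in the marrow cells and 3.72 RPKM in the heart cells. Its log2 ratio of -1.02 came to between -0.95 and -0.90 under the 3 other scalings and so lost its call. Sema3b, which encodes a secreted semaphorin, was at 4.07 RPKM in the marrow cells and 0.629 RPKM in the heart cells, under the floor of 5. The third hyaluronidase gene of the cluster, Hyal3, stood at 0.0856 and 0.166 RPKM, from 9 and 21 reads, with an interval of the ratio of 0.853 to 4.82. Hyal2 was called neither, and Hyal1 and Hyal3 were under the floor.

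Other genes of hyaluronan metabolism were read from a list of 58, of which 35 reached 1 RPKM and 31 reached 5 RPKM in either library. Gfpt2, Adam17, Spp1 and Adamts4 were called higher in heart, and Cemip, Tmem2, Ptx3, Hmmr and C1qbp higher in bone marrow. The 4 toward heart and 5 toward bone marrow stand beside 7.56% and 9.51% of all genes, and 22 of the 31 were called neither. After scaling to the median ratio the counts were 5 toward heart, with Hexa added, and 3 toward bone marrow. The median log2 ratio of the 35 was -0.01, beside -0.11 over all genes at that level. The list was chosen with earlier results of these data known.

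**Figure D4:**
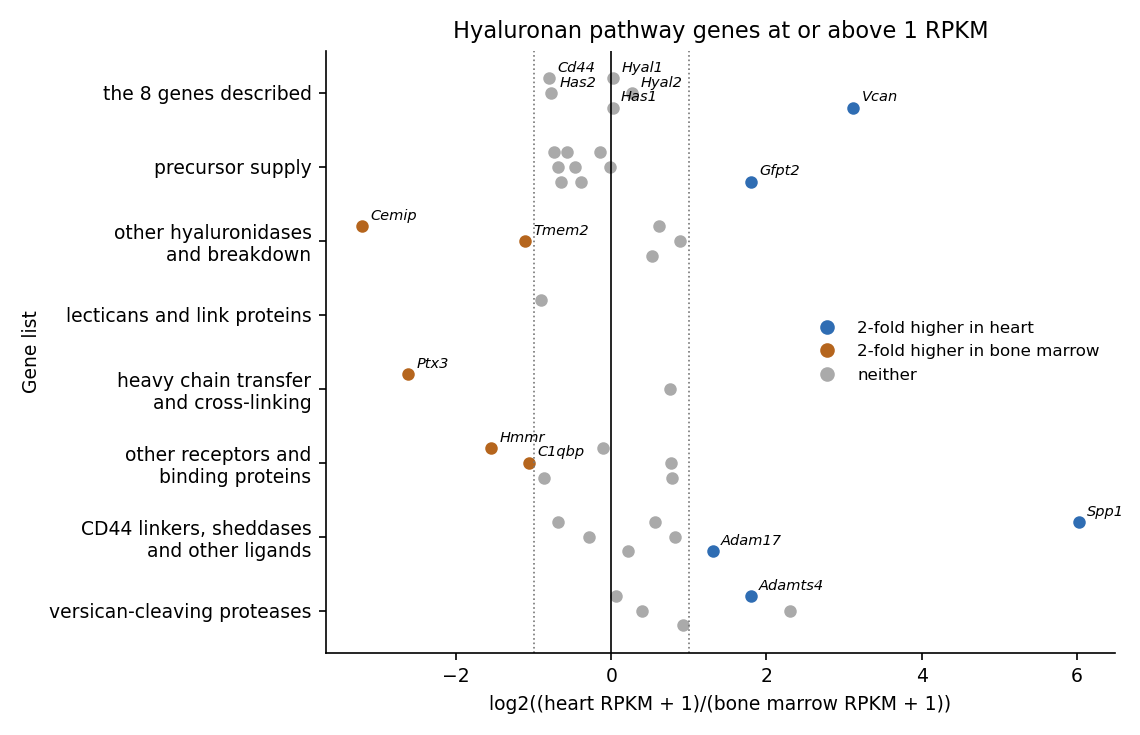
log2((heart RPKM + 1)/(bone marrow RPKM + 1)) of genes at or above 1 RPKM in either library, by gene list, with dotted lines at 2-fold and called genes labelled (Vcan, Cd44, Has1, Has2, Hyal1 and Hyal2 in the top line). Cemip at -3.21 and Ptx3 at -2.62 lie furthest toward bone marrow, and Spp1 at 6.03 furthest toward heart.

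Of 9 precursor supply genes, Gfpt2 was called higher in heart and 8 were called neither, beside 7.56% of all genes called toward heart. Those 8 had log2 ratios below 0, as did 58.0% of all genes at or above 1 RPKM, though that of Gpi1 (-0.01) was above 0 under all 3 other scalings. The median was -0.46, beside -0.11 over all genes. Ugdh, which makes the UDP-glucuronic acid used by the synthases and was picked with its values known, measured 30.6 RPKM in the marrow cells and 18.7 RPKM in the heart cells. Ugp2, which makes UDP-glucose, stood at 33.6 and 21.0 RPKM, and the glycolytic isomerase gene Gpi1 at 46.2 and 45.8. Gfpt2 encodes a form of the rate-limiting enzyme of the hexosamine pathway, which leads to UDP-N-acetylglucosamine, and measured 1.69 RPKM in the marrow cells and 8.40 RPKM in the heart cells, 4.98 times higher with an interval of 4.54 to 5.49. Its paralogue Gfpt1, also picked with its values known, was at 24.2 and 16.0 RPKM, so Gfpt1 was the more abundant form in both libraries.

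Of the breakdown genes outside the Hyal family, Cemip and Tmem2 were called higher in bone marrow and none was called higher in heart. Among all genes at or above 5 RPKM, 9.51% were called toward bone marrow and 7.56% toward heart. Cemip encodes a secreted protein that binds hyaluronan and is needed for its depolymerization by fibroblasts. It measured 21.2 RPKM in the marrow cells and 1.39 RPKM in the heart cells (13986 and 1103 reads), 15.2 times lower in heart with an interval of 14.3 to 16.2. In bone marrow its level was 5.21 times that of Hyal2, and in heart 0.271 times. Tmem2, which encodes a related membrane protein, was at 10.9 RPKM in the marrow cells and 4.53 RPKM in the heart cells, with a log2 ratio of -1.11, which was -0.99 and no longer called after scaling to the median ratio. Hexa, which encodes a lysosomal enzyme subunit that removes terminal sugars from the fragments, was at 113 RPKM in the marrow cells and 210.4 RPKM in the heart cells. Its log2 ratio of 0.89 was under 2-fold, and at 1.04 after scaling to the median ratio it was called higher in heart. The remaining hyaluronidase family genes Hyal4, Hyal5, Hyal6 and Spam1 had at most 1 read in either library.

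Of the other lecticans and link proteins, none of 7 reached 5 RPKM. Hapln4, a link protein gene, was at 4.38 RPKM in the marrow cells and 1.87 RPKM in the heart cells. Bcan, a lectican gene of brain, was at 0.501 and 0.00759 RPKM, from 110 and 2 reads, 66.1 times lower in heart (95% counting interval 17.9 to 552). Acan and Ncan, the remaining lectican genes, were below 0.02 RPKM in both libraries, so Vcan was the only lectican at or above 1 RPKM in either.

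Among genes of hyaluronan cross-linking, Ptx3 encodes a pentraxin that joins heavy chain-bearing hyaluronan into a network. It measured 25.8 RPKM in the marrow cells and 3.37 RPKM in the heart cells, with a log2 ratio of -2.62. Itih2, which encodes one of the heavy chains that TSG-6 transfers, was at 0.871 RPKM in the marrow cells and 2.18 RPKM in the heart cells. Itih1 and the light chain gene Ambp had 0 reads in both libraries. Ptx3 and Tnfaip6, whose products act on the same matrix, stood on opposite sides of equality, the latter at low level.

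Of the other binding proteins, Hmmr was at 6.15 RPKM in the marrow cells and 1.44 RPKM in the heart cells, 4.27 times lower in heart with an interval of 3.87 to 4.72. Its product RHAMM binds hyaluronan at the surface and is also a protein of the mitotic spindle. C1qbp encodes a mainly mitochondrial protein that was first listed as a hyaluronan-binding protein, and stood at 88.2 and 41.9 RPKM, a log2 ratio of -1.06 that came to between -0.97 and -0.91 under the 3 other scalings and so lost its call. Habp4, an intracellular RNA-binding protein gene, was at 13.7 and 12.8 RPKM. The lymphatic and sinusoidal receptor genes Lyve1, Stab1 and Stab2 were below 0.2 RPKM in both libraries. Layilin, a further receptor (Layn, picked with its values known), was at 7.89 RPKM in the marrow cells and 14.3 RPKM in the heart cells, so in heart it stood above Cd44.

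Of 8 genes listed as cytoskeletal linkers, sheddases and other ligands of CD44, 7 were at or above 5 RPKM. Of these 7, Spp1 and Adam17 were called higher in heart and 5 were called neither, beside 7.56% of all genes called toward heart. The remaining gene, Srgn, was at 0.0506 RPKM in the marrow cells and 0.0913 RPKM in the heart cells. Spp1, which encodes osteopontin, was at 113 RPKM in the marrow cells and 7438 RPKM in the heart cells. Mmp14, a membrane protease gene whose product can shed CD44, was at 235.8 and 417 RPKM, a log2 ratio of 0.82. Adam17, a further sheddase gene, was at 9.17 and 24.1 RPKM, 2.63 times higher in heart with an interval of 2.54 to 2.74. The cytoskeletal linker genes Ezr, Rdx and Msn were each called neither.

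Of the proteases that cut versican, 3 reached 5 RPKM, and of these Adamts4 was called higher in heart and Adamts1 and Adamts5 were called neither. Among all genes at or above 5 RPKM, 7.56% were called toward heart. Adamts4 was at 4.56 RPKM in the marrow cells and 18.3 RPKM in the heart cells, 4.02 times higher with an interval of 3.78 to 4.28. Adamts1 was at 22.4 and 29.9 RPKM and Adamts5 at 15.3 and 16.0, both under 2-fold. Adamts15, picked with its values known, was at 0.00609 RPKM in the marrow cells and 3.98 RPKM in the heart cells, under the floor. The level of Vcan was 0.487 times that of Adamts1 in bone marrow and 3.43 times in heart.

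By Euclidean distance of log2(RPKM + 1) over the 2 libraries, the genes with values nearest to those of Vcan were Gng11, Tmem176b and Matn2. Gng11 measured 12.8 RPKM in the marrow cells and 94.2 RPKM in the heart cells, Tmem176b 12.4 and 85.5 RPKM, and Matn2 13.4 and 76.9 RPKM. With 2 libraries, this likeness means only that the pairs of values are close.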

How the data were processed

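RNA from 1 bone marrow and 1 heart culture (1 ug each) was sequenced, per the labels' protocols. The deposited unit is RPKM, as computed by the authors per the file headers, for 49585 rows. Which aligner and counter were used, and whether strand was, is not given in the sources used here. Overlapping and antisense genes can therefore hold each other's reads. The submitters' processing notes name mm8 as the genome build. Of all rows, 45149 (91.1%) have the exact coordinates of a GENCODE M21 gene on GRCm38, and GRCm38 is used here. Values of genes with a matching model are whole multiples of 1 read (12288 of 14247 within 0.02 reads in both libraries), which gave the read totals. These reads are derived, and no count model was fitted. The pseudocount was 1 RPKM. Rows sharing a symbol were represented by the highest mean. Members, lists and rules were chosen with earlier results of these data known. Named genes were the 8 members, every called gene of the wider list, the 2 most abundant of each subgroup, the protein-coding neighbours of Hyal1 and Hyal2 (by the lower coordinate of each row) and the 3 genes nearest to Vcan. Other genes of the lists were picked with their values known. Some of what the rule takes is not reported here. Alternatives changed the pseudocount, floor, threshold, scaling and shared rows. Scripts in Python 3.11.15 (scipy 1.17.1, pandas 2.3.3, numpy 2.4.6; plots in matplotlib 3.10.9) were tested on simulated data.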

Additional observations from a re-analysis of the deposited data

How the results depend on the processing

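Vcan was called higher in heart, and no other of the 8 genes was called, under each of the 10 alternatives. For the 5 genes below 5 RPKM a call was possible only with the floor lowered to 1 RPKM or dropped. For Has3 and Tnfaip6, below 1 RPKM, it was possible only with no floor. At a pseudocount of 0.1 RPKM the log2 ratio of Has2 was -1.08, beyond 2-fold, and only the floor kept it from a call. Over 6049 genes with at least 5 RPKM in each library the log2 ratios had a median of -0.14. Dividing the heart values by the median ratio of those genes gave Vcan 3.27, Cd44 -0.66 and Has2 -0.69. Over the 6 settings that bear on single genes, 254 of 258 log2 ratios of 43 genes (those the naming rule takes) kept their sign. The exceptions were Gpi1 under all 3 scalings and Habp4 under the median scaling. A change of pseudocount cannot change a sign, and summing shared rows left these values as they were. Only the 3 scalings could therefore change a sign. A floor of 20 RPKM left 2 of the 8 genes, Vcan and Cd44, with a median of 1.16, and 16 of the wider list with a median of -0.15, 2 called toward heart and 3 toward bone marrow. A 4-fold threshold left 1 of the wider list toward heart and 2 toward bone marrow. A pseudocount of 5 RPKM left 4 of the wider list toward heart and 2 toward bone marrow, and the median scaling gave 5 and 3, with Hexa gained at 1.04 and Tmem2 lost at -0.99 and C1qbp at -0.91. The median of the wider list became 0.13, 0.073 and 0.079 under scaling to the median ratio, to the upper quartile and to the RPKM sum. Over the same alternatives all genes called toward heart and toward bone marrow numbered 704 and 583 under the median scaling, 649 and 635 under the upper quartile and 653 and 631 under the RPKM sum, against 579 and 728 as deposited. Levels per length of the longest coding transcript, chosen after seeing the data, put Vcan at 12.7 and 119 RPKM and Cd44 at 25 and 13.9. No paired analysis was possible because each tissue has 1 library.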

Other observations

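Versican carries chondroitin sulfate, and 21 genes that build and sulfate such chains were read from a list chosen after the data were seen. Of 16 at or above 5 RPKM, the calls were 4 toward heart and 1 toward bone marrow, beside 7.56% and 9.51% of all genes, and 11 were called neither. Chst11, which encodes the main chondroitin 4-O-sulfotransferase, measured 4.71 RPKM in the marrow cells and 39.2 RPKM in the heart cells, 8.32 times higher with a counting interval of 7.88 to 8.80. Xylt1, which encodes a xylosyltransferase that starts the chains on the core protein, was at 2.42 and 7.98 RPKM. Csgalnact1, whose enzyme commits the chain to chondroitin, was at 4.27 and 12.7 RPKM, and Dsel, related to the epimerase that forms dermatan sulfate, at 5.59 and 13.0. Dse, the gene of that epimerase, was at 36.0 RPKM in the marrow cells and 22.5 RPKM in the heart cells and was called neither. Chst12, another 4-O-sulfotransferase gene, went the other way, at 19.2 RPKM in the marrow cells and 8.32 RPKM in the heart cells. The median log2 ratio of the 18 at or above 1 RPKM was -0.01, beside -0.11 over all genes at that level.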
